A study of Rattus norvegicus with 20 samples.

Results

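Expression of 6 genes best known from the adrenal cortex was followed in testes of fetal rats: Cyp11b1, Cyp11b2, Cyp11b3, Cyp21a1, Mc2r and Akr1b7. The list of genes was drawn up with earlier results of these data known. Their probes were found by name, from the gene name of each array probe or the current symbol of the transcript it was designed for. This gave 1 probe per gene, 6 of the 41012 probes on the array. The dams were Han Wistar rats gavaged once a day from gestation day 12 to gestation day 19. The 4 test compounds were DEHP, a phthalate diester with the full name di(2-ethylhexyl) phthalate, its monoester MEHP, the trimellitate triester TOTM, written tris(2-ethylhexyl) trimellitate in full, and EHO, for which the labels give no full name. Each was given at 500 mg/kg, a dose matched by weight rather than by number of molecules, and control dams received corn oil, the vehicle. A group comprised 4 arrays, and each array held RNA pooled from the testes of at least 3 pups of 1 litter, so values of single foetuses are not seen. All foetuses were males of 1 strain, no genetic change was made, and the rat testis was sampled after 1 dosing scheme.

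Steroid hormones are made from cholesterol, which Star brings into mitochondria and Cyp11a1 cleaves to pregnenolone. In the adrenal cortex, Cyp21a1 (the 21-hydroxylase) and then Cyp11b1 (the 11-beta-hydroxylase) complete corticosterone, Cyp11b2 is aldosterone synthase, and Cyp11b3 is a further enzyme of the same family in the rat. Mc2r is the receptor for the pituitary hormone ACTH and needs the accessory protein Mrap to reach the cell surface. Akr1b7 is an aldo-keto reductase that clears the aldehyde left by cholesterol cleavage, known from the mouse adrenal and vas deferens. In the mouse, the fetal testis is known to hold some cells that use adrenal-type enzymes beside the Leydig cells, which make testosterone.

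The 3 Cyp11b probes lie in a row on chromosome 7 of rat build rn4, per the array files: Cyp11b1 at chr7:112977770-112977829, Cyp11b3 at chr7:113013351-113013410 and Cyp11b2 at chr7:113044144-113044203. The gaps between neighbouring probes are 35.522 kb and 30.734 kb. In the RefSeq gene order of build GRCr8 the 3 genes stand in the same order with 1 other gene between each neighbouring pair. The gene Cyp11b2l1 stands next to Cyp11b1 on its other side, and the pseudogene Cyp11b1-ps1 stands next to Cyp11b2l1. These genes are close relatives, so a probe may also bind the RNA of a neighbour, and the probe sequences were not used here. The other probes are at chr20:4127507-4127636 for Cyp21a1 (spanning 130 bases), chr18:64601167-64601226 for Mc2r and chr4:61806769-61806828 for Akr1b7. Exon and UTR annotation of rn4 was not used here.

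On each array the processed signal is the brightness of a spot after background subtraction, and the scanner software marks whether it stands well above background. Of all spots, 46.1% to 63.5% were well above background on EHO arrays and 63.9% to 79.8% on the other arrays, and EHO 1 and EHO 2 had the lowest shares, 46.1% and 50.4%. The 4 arrays of each group sat together on 1 of 5 slides, which means that effects of the slide cannot be told apart from those of the compound. MEHP 1 and MEHP 2 differed by 0.758 times the noise of repeated spots. Since this is less than the sampling noise, the pair was counted as 1 sample, leaving 19 samples in all. For pairs of arrays of the same group the median was 2.20 times the spot noise. MEHP 3 lay at 1.26 times the spot noise from control 2, and MEHP 4 at 1.32 times from DEHP 3. Calls with EHO are given with and without EHO 1 and EHO 2, alternatives of processing apart. The Cyp11b1 differences of MEHP from control and from DEHP are given with and without MEHP 3 and MEHP 4. Levels below are log2 processed signal minus the 75th percentile of the array, and a gene counts as called at an adjusted p under 0.05 from limma with Benjamini-Hochberg adjustment over all genes tested.

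Cyp11b1 was measured on 19 of 20 arrays and was the member that varied most between groups. Its processed signal was 85.6, 83.1, 75.1 and 52.2 on the 4 DEHP arrays, against 228 to 423 on the control arrays (228, 388, 423 and 352). Every DEHP litter pool was thus dimmer than every control pool. The level averaged −2.06 ± 0.43 with DEHP and 0.09 ± 0.52 in control (SD, n = 4 each). The difference of −2.15 ± 0.57 (SE) had a 95% interval of −3.35 to −0.95 and makes the signal 4.44-fold lower with DEHP. The exact permutation p was 0.0286 (two-sided), the smallest that 4 against 4 samples can give. After adjustment over all 23956 genes the limma p was 0.707, so this difference did not pass the threshold. The fit pools the spread over all groups, and that of MEHP was the widest (SD 1.91, n = 3). With DEHP and control fitted alone the difference passed, where 15 genes were called lower over the whole array. In these bulk samples fewer cells that make an RNA and less of it per cell cannot be told apart.

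**Figure D1:**
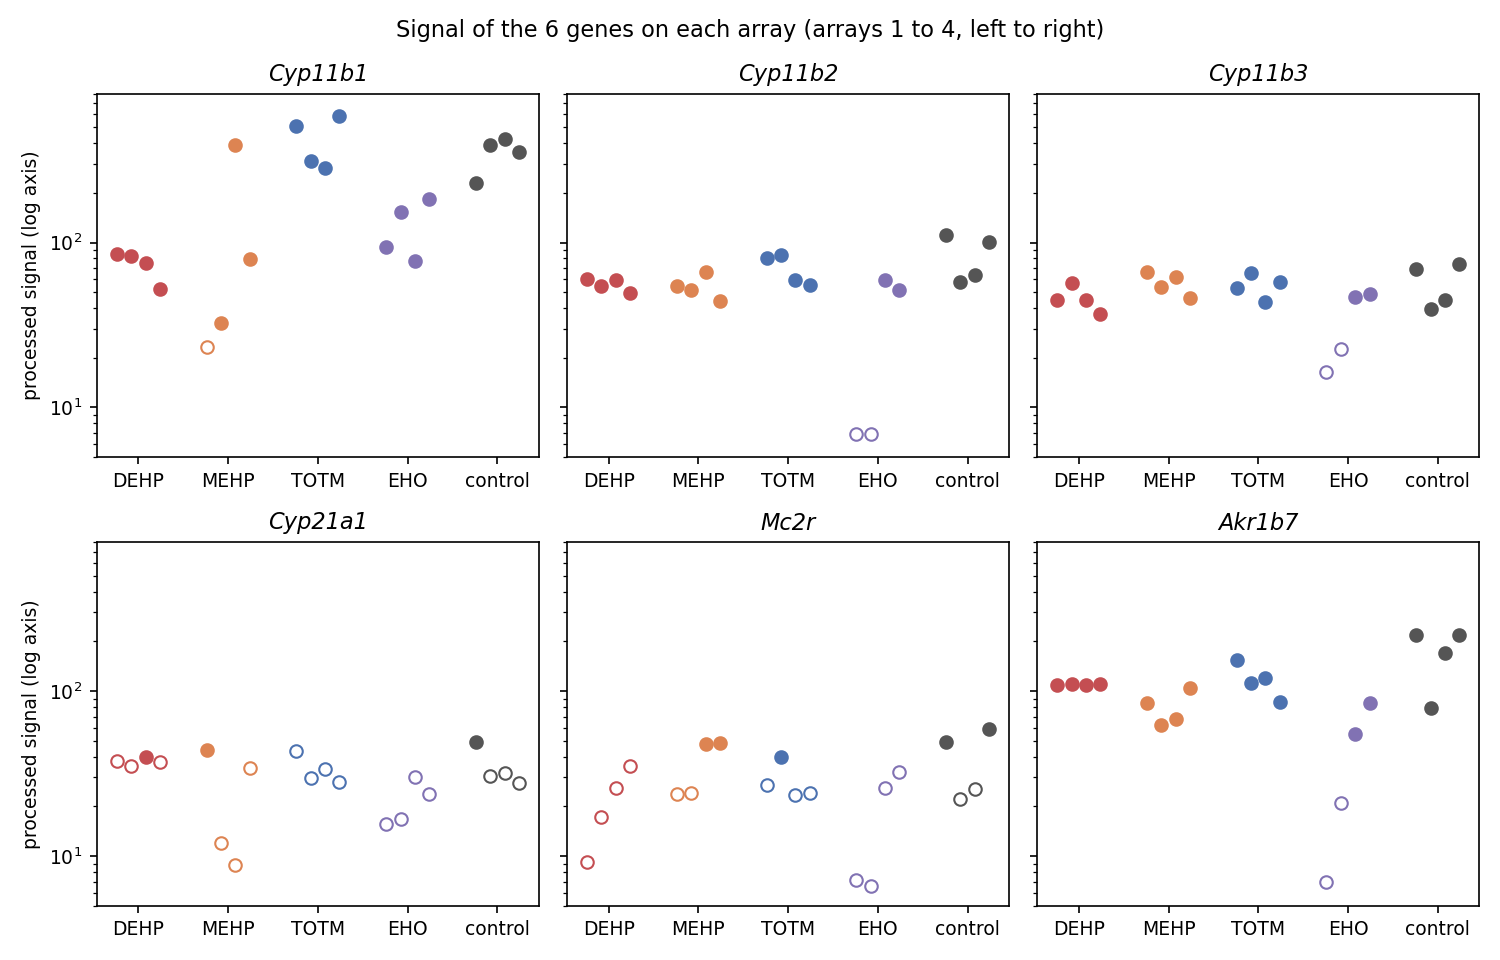
Processed signal (log axis) of the 6 genes on each of the 20 arrays, by group, with arrays 1 to 4 of a group from left to right. Filled points were well above background and open points were not. Cyp11b1 was low on all DEHP arrays and on MEHP 1, 2 and 4. On the EHO arrays it was 77.7 to 184.5, below the dimmest control array, and EHO 3 lay within the DEHP range. Cyp11b2, Cyp11b3 and Akr1b7 were not well above background on EHO 1 and EHO 2.

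With MEHP the arrays disagreed. Cyp11b1 was at 23.3 and 32.6 on MEHP 1 and MEHP 2, at 389.7 on MEHP 3 and at 79.7 on MEHP 4, against 228 to 423 in control. MEHP 1 was the single array where this probe was not well above background. MEHP 3, the array that lay close to control 2, had nearly the signal of control 2 (388), and MEHP 4, which lay close to DEHP 3, had nearly that of DEHP 3 (75.1). The level averaged −1.64 ± 1.91 with MEHP (n = 3) and 0.09 ± 0.52 in control (n = 4), a difference of −1.73 ± 0.61 (95% interval −3.02 to −0.43, limma adjusted p = 0.478, exact permutation p = 0.114). Without MEHP 3 the difference was −2.76 and passed (limma adjusted p = 0.00505). Without both MEHP 3 and MEHP 4, MEHP was left as 1 sample assumed to vary like the other groups, at −3.41 from control (limma adjusted p = 0.00987). Without MEHP 1 and MEHP 2, chosen after the data were seen, it was −0.88 (limma adjusted p = 0.972). What sets MEHP 3 and MEHP 4 apart was not tested.

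TOTM testes had Cyp11b1 signals of 510.2, 313.5, 284.6 and 587.3, against 228 to 423 in control, and the ranges overlapped. The level averaged 0.44 ± 0.47 with TOTM and 0.09 ± 0.52 in control (SD, n = 4 each). The difference of 0.36 ± 0.57 did not pass (limma adjusted p = 1.0) and its 95% interval ran from −0.84 to 1.55, a fold of 0.558 to 2.94. With EHO the signals were 93.5, 153.5, 77.7 and 184.5, all below the dimmest control array before scaling between arrays. After scaling the groups overlapped, at −0.96 ± 0.61 with EHO and 0.09 ± 0.52 in control (SD, n = 4 each). The difference of −1.04 ± 0.57 did not pass (limma adjusted p = 0.159, exact permutation p = 0.0857), and scaled by the array median it was −0.52. By mean level the groups ran from TOTM through control, EHO and MEHP to DEHP, and each overlapped its neighbour in that order. The place of MEHP above DEHP turned without MEHP 3 and MEHP 4, and without control 2 and MEHP 3. That of EHO above MEHP turned without MEHP 1 and MEHP 2, with EHO at −0.16 from MEHP.

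Akr1b7 was nearly constant among DEHP pools and most spread with EHO. Its signal was 108.9, 109.5, 109.0 and 110.5 with DEHP, against 219.2, 78.5, 169.1 and 218.4 in control. With MEHP it was 84.3, 61.9, 67.6 and 104.9, and with TOTM 154.9, 112.2, 120.0 and 85.7. All 3 groups overlapped with control, in which control 2 lay well below the other 3 arrays. DEHP differed from control by −0.46 ± 0.50, MEHP by −0.88 ± 0.54 and TOTM by −0.36 ± 0.50, and none of these passed.

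Akr1b7 was called lower with EHO. The signals were 6.97, 20.9, 54.7 and 84.2 with EHO, against 78.5 to 219 in control, and on EHO 1 and EHO 2 the spot was not well above background. On EHO 1 the scanner software had put a surrogate value in place of the signal. The level averaged −3.03 ± 1.46 with EHO and −1.01 ± 0.54 in control (SD, n = 4 each), a difference of −2.02 ± 0.50 (95% interval −3.06 to −0.97, limma adjusted p = 0.0204, exact permutation p = 0.0571). The call was lost without EHO 1 and EHO 2, where the difference was −0.90 (limma adjusted p = 0.170). It was also lost on leaving out EHO 2 (−1.91, adjusted p = 0.0577), control 1 (−1.91, adjusted p = 0.0684) or control 4 (−1.91, adjusted p = 0.0552) in the limma fit. With the arrays of EHO and control fitted alone it was lost too (limma adjusted p = 0.223). With normexp and quantile normalization the difference was −0.64 and was called (limma adjusted p = 0.000982).

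The 300 bases around the start of Akr1b7, from RefSeq build GRCr8 at chr4:64043720-64044019 on the plus strand, are shown because it is the called gene of this set with a promoter in the tables used. Capitals mark TGACCT, the reverse complement of the nuclear receptor half-site AGGTCA, which steroidogenic factor 1 (Nr5a1) is among the receptors to bind.
Akr1b7: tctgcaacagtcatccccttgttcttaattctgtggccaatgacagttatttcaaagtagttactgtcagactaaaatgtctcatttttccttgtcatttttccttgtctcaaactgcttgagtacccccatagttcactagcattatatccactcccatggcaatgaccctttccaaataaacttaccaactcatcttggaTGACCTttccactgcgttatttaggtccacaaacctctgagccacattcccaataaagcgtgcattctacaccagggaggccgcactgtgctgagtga
The match begins 48 bases before the start, and 16.18% of 33469 rat promoters of the same length hold AGGTCA on either strand. The match is a description of the sequence, not a measured binding site. Nr5a1 itself was well above background on all 20 arrays, at 0.28 ± 0.24 from control with EHO (limma adjusted p = 0.385).

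Cyp11b2 was dim throughout. Its signal was 60.1, 54.6, 59.4 and 49.2 with DEHP, 54.3, 51.8, 66.6 and 44.4 with MEHP and 80.8, 84.0, 59.3 and 55.4 with TOTM, against 110.6, 57.3, 63.5 and 100.3 in control. These groups overlapped, and the differences of −0.45 ± 0.52, −0.45 ± 0.56 and −0.11 ± 0.52 did not pass. With EHO the signals were 6.92, 6.91, 59.1 and 51.6, where the first 2 were surrogate values, so the EHO arrays split into 2 not well above background and 2 within the range of the other groups. The level was −3.57 ± 1.58 with EHO and −2.0 ± 0.31 in control (SD, n = 4 each). The difference of −1.57 ± 0.52 was called (95% interval −2.66 to −0.48, limma adjusted p = 0.0416, exact permutation p = 0.114). Without EHO 1 and EHO 2 it was −0.20 (limma adjusted p = 0.742), and without EHO 1 alone −1.12 (adjusted p = 0.140). Leaving out EHO 2, control 1, control 3 or control 4 also ended the call (limma adjusted p = 0.131, 0.115, 0.0556 and 0.0937).

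Cyp11b3 had the smallest differences of the measured members. Its signals were 36.8 to 56.9 with DEHP, 45.9 to 66.7 with MEHP, 43.4 to 65.6 with TOTM and 16.5 to 48.7 with EHO, against 39.6 to 74.3 in control. On EHO 1 and EHO 2 it was not well above background, at 16.5 and 22.5, and EHO 3 and EHO 4 lay within the control range at 46.9 and 48.7. DEHP differed from control by −0.21 ± 0.26, MEHP by 0.12 ± 0.29, TOTM by 0.08 ± 0.26 and EHO by −0.40 ± 0.26, and none of these passed. The widest 95% interval among them, for MEHP, was −0.48 to 0.72.

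EHO 1 and EHO 2 bear on 3 members at once. Of 23256 probes well above background on all the other 18 arrays, 3651 (15.7%) were not on both EHO 1 and EHO 2. Of the 6 members, 3 were well above background on those 18 arrays, and all 3, Cyp11b2, Cyp11b3 and Akr1b7, were among the 3651. Their median signals over all arrays were 58.2, 47.8 and 107, where the lowest signal marked well above background was 25.0 to 39.6 by array. The 15.7% is a share over probes of every brightness, so it is no like-for-like measure for dim probes. Over all genes tested the median difference of EHO from control was −0.18, and 0.35 with arrays scaled by their median. Relative to the median of all genes, an alternative added after the data were seen, Akr1b7 was at −1.84 (limma adjusted p = 0.0190) and Cyp11b2 at −1.39 (adjusted p = 0.0601).

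**Figure D2:**
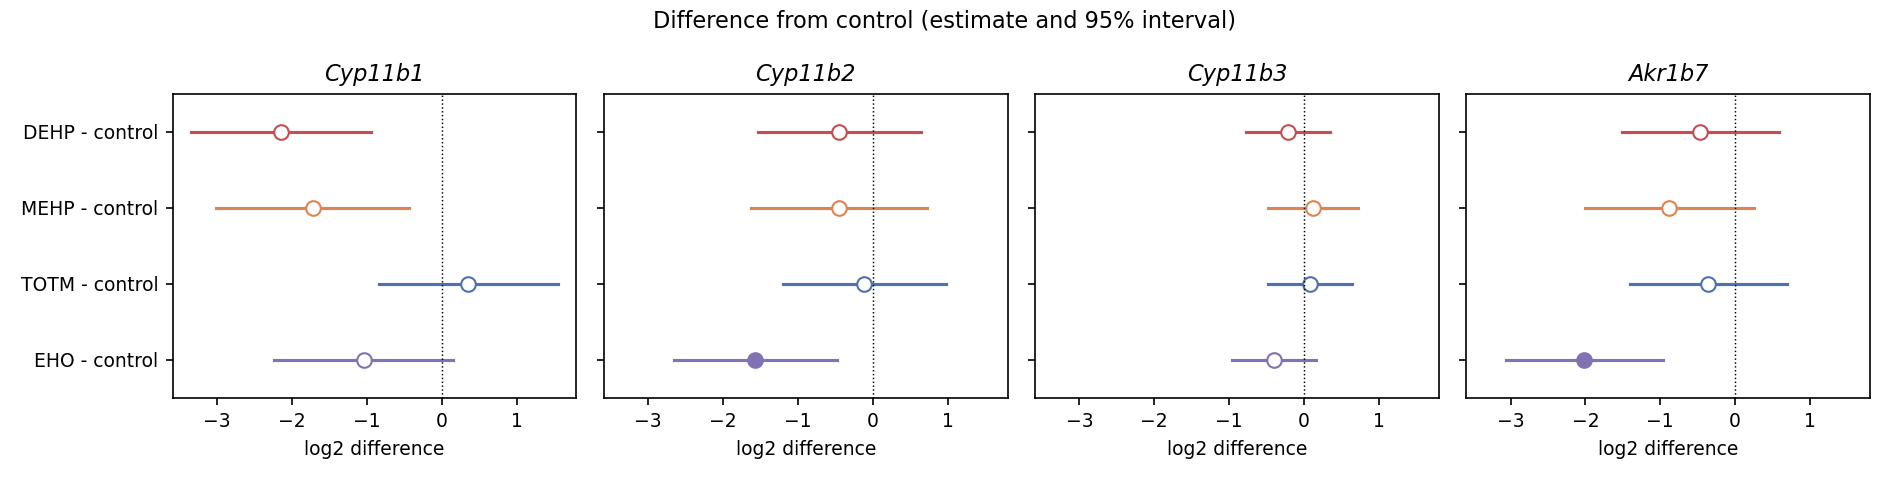
Difference from control (log2) for the 4 measured genes with each compound, as estimate and 95% interval from limma, where filled points are called at an adjusted p under 0.05. The called points are Cyp11b2 (−1.57) and Akr1b7 (−2.02) with EHO, and the Cyp11b1 intervals for DEHP and MEHP lie below 0 without a call.

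Counted over the set, 4 of 6 members passed the filter on low values, which asks for a probe well above background on all arrays of at least 1 group. With DEHP 0 of these 4 were called lower by limma, where 0% of 23956 genes were, and the groups did not overlap for 1 of 4 (Cyp11b1), where 1.79% of all genes were lower without overlap. At an unadjusted p under 0.05, 1 of 4 passed with DEHP (Cyp11b1), beside 2.47% of all genes in either direction. With MEHP 0 of 4 were called, where 0.964% of all genes were in either direction, and 1 (Cyp11b1) had an unadjusted p under 0.05, beside 5.32%. With TOTM 0 of 4 were called, where 0.0209% of all genes were, and 0 had an unadjusted p under 0.05, beside 8.21%. With EHO 2 of 4 were called lower, where 18.3% of all genes were. Both called members passed the filter only through groups other than EHO, so these 2 calls and the 18.3% depend on the filter. With a filter on all 20 arrays, which leaves no member, 1384 genes were called higher and 781 lower with EHO. The counts with the filter used here were 1547 and 4390. The members' median difference was −0.46 with DEHP (−0.03 over all genes), −0.67 with MEHP (−0.06), −0.02 with TOTM (−0.04) and −1.31 with EHO (−0.18). The comparisons with control share the same control arrays.

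Cyp21a1 was hardly measured. Its probe was well above background on 3 of 20 arrays, DEHP 3, MEHP 1 and control 1, at 39.8, 43.8 and 49.0. On the other arrays the processed signal lay between 8.84 and 43.1, where the lowest signal marked well above background was 25.0 to 39.6 by array. No group had it above background on more than 1 array, so no fold is given. The start region of Cyp21a1, at chr20:4028141-4028440 of GRCr8 on the plus strand from RefSeq, is shown for comparison with Akr1b7, because it holds the same half-site. Capitals mark AGGTCA and TATAAA.
Cyp21a1: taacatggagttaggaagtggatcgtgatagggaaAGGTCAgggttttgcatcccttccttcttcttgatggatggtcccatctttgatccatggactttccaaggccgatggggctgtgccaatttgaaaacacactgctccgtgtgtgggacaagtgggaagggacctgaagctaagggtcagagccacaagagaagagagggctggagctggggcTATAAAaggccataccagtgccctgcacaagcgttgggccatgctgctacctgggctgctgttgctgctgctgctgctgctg
They begin 215 and 32 bases before the start, and 14.22% of promoters hold TATAAA on either strand. TGACGTCA, the cAMP response element, was in neither promoter nor in that of Mc2r, and 1.829% of promoters hold it. Mc2r had none of the 3 motifs in its 300 bases.

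Mc2r, the ACTH receptor, was well above background on 5 of 20 arrays. These were MEHP 3 and MEHP 4 at 47.7 and 48.4, TOTM 2 at 40.0 and control 1 and control 4 at 48.9 and 59.1. No DEHP or EHO array measured it, with signals of 9.18 to 35.0 and 6.54 to 32.1, against 22.3 to 59.1 in control. On EHO 1 and EHO 2 its signal was a surrogate value. Since no group measured it on all its arrays no fold is given. Its partner Mrap was well above background on all 20 arrays. Mrap averaged 0.90 ± 0.46 with DEHP and 2.16 ± 0.23 in control (SD, n = 4 each), a difference of −1.26 ± 0.38 that did not pass (limma adjusted p = 1.0).

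The compounds were also set against each other, as 6 pairs for 4 members, 24 comparisons, of which limma called 1. Members called numbered 0 for MEHP against DEHP (1.13% of all genes), TOTM against DEHP (0% of all genes), EHO against DEHP (6.68%), TOTM against MEHP (1.52%) and EHO against MEHP (0.301%). Cyp11b1 was 5.68-fold higher with TOTM than with DEHP, at 0.44 ± 0.47 with TOTM and −2.06 ± 0.43 with DEHP (SD, n = 4 each). The difference of 2.51 ± 0.57 (95% interval 1.31 to 3.70) separated all arrays of both groups (exact permutation p = 0.0286, the smallest possible), where 1.93% of all genes were higher without overlap, and the limma adjusted p over all genes was 0.444. With TOTM and DEHP fitted alone this difference was called (limma adjusted p = 0.01015), where 8 genes were called higher over the whole array. TOTM is the triester of trimellitic acid, DEHP the diester of phthalic acid and MEHP its monoester, all with the same branched alcohol. MEHP and DEHP differed in Cyp11b1 by 0.42 ± 0.61, with a 95% interval of −0.87 to 1.72 that leaves differences of either sign. The estimate turned to −1.26 without MEHP 3 and MEHP 4 and to −0.61 without control 2 and MEHP 3. Without MEHP 1 and MEHP 2 it was 1.265, so its sign depends on which MEHP arrays are used. TOTM was above MEHP by 2.08 ± 0.61 (95% interval 0.79 to 3.38, limma adjusted p = 0.121), and without MEHP 3 this pair was called.

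By mean level with all arrays, EHO lay between MEHP and TOTM in Cyp11b1. It was 1.10 ± 0.57 above DEHP (95% interval −0.09 to 2.30, limma adjusted p = 0.157) and 0.68 ± 0.61 above MEHP (adjusted p = 0.465). Without MEHP 1 and MEHP 2, EHO was at −0.16 from MEHP, and without MEHP 3 and MEHP 4 at 2.37. Its place thus depends on the MEHP arrays used. EHO was 1.40 below TOTM, as −1.40 ± 0.57 (95% interval −2.60 to −0.20, limma adjusted p = 0.0703), with no overlap of the arrays, where 8.9% of all genes were lower without overlap. Without EHO 1 and EHO 2, EHO was at 0.97 from DEHP, 0.55 from MEHP and −1.53 from TOTM. None of these was called (limma adjusted p = 0.619, 0.731 and 0.257). The called pair was Akr1b7, at −3.03 ± 1.46 with EHO and −1.37 ± 0.41 with TOTM (SD, n = 4 each). The difference of −1.66 ± 0.50 (95% interval −2.71 to −0.61, limma adjusted p = 0.0328) is 1 of 4 members called lower, where 13.3% of all genes were. Akr1b7 passed the filter only through groups other than EHO. That call was lost without EHO 1 and EHO 2, where the difference was −0.55 (limma adjusted p = 0.387), and just lost without MEHP 3 and MEHP 4 (adjusted p = 0.0503). Leaving out EHO 1 (−1.03, adjusted p = 0.0855), EHO 2 (0.0810), TOTM 1 (0.0886), TOTM 2 (0.0770) or TOTM 3 (0.0646) ended it too in the limma fit. Akr1b7 was also lower in every MEHP sample than in every DEHP sample, by −0.41 ± 0.54 (95% interval −1.55 to 0.72, limma adjusted p = 1.0), where 8.91% of all genes were lower without overlap.

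**Figure D3:**
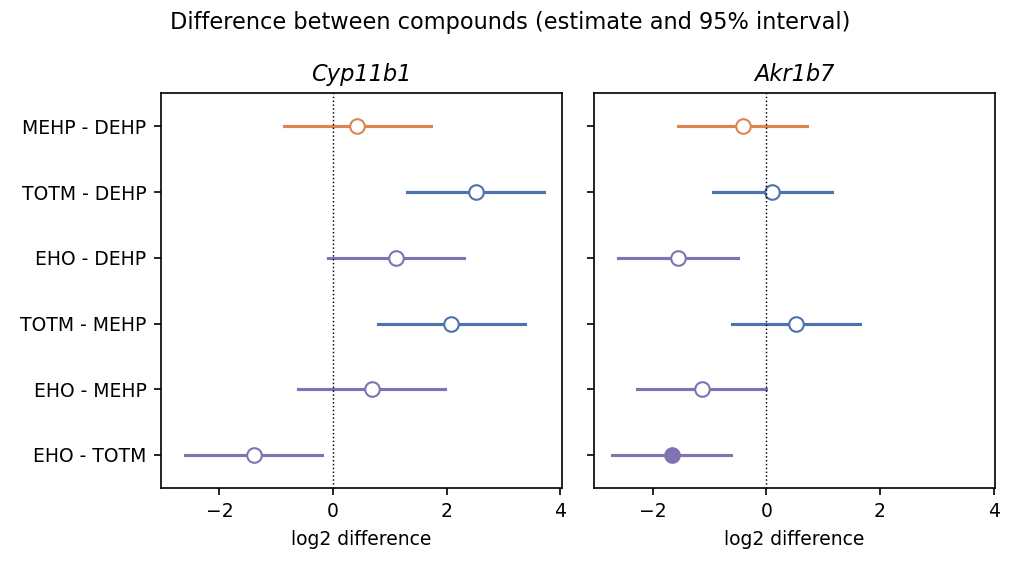
Difference between compounds (log2) for Cyp11b1 and Akr1b7 in 6 pairs, as estimate and 95% interval from limma, where filled points are called at an adjusted p under 0.05. Cyp11b1 is 2.51 higher with TOTM than with DEHP without a call, and Akr1b7 is −1.66 with EHO relative to TOTM with a call.

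Across samples the level of Cyp11b1 was set beside those of other steroid genes. Over 19 samples the Pearson correlation of its level with Star was 0.94 (Spearman 0.92), with Fdx1, the electron carrier of mitochondrial steroid enzymes, 0.88, with the cholesterol receptor Scarb1 0.87, with Cyp11a1 0.85 and with Hsd3b1 0.78. After group means were removed these were 0.90, 0.91, 0.86, 0.77 and 0.83. With Cyp11b2 it was 0.18, with Cyp11b3 0.18, with Akr1b7 0.17 and with Nr5a1 0.05. For the other genes of steroid synthesis with values in all samples it was 0.82 with Hsd3b2, 0.65 with Cyb5a, 0.62 with Fdxr, 0.53 with Tspo, 0.14 with Por, 0.04 with Hsd17b3 (the last enzyme of testosterone synthesis) and −0.01 with Stard3. After group means were removed these were, in the same order, 0.82, 0.81, 0.46, 0.56, −0.41, 0.24 and 0.63, and Nr5a1 was at −0.37. The MEHP samples were the most spread in Cyp11b1 (SD 1.91, n = 3), so they weigh most in values with group means removed. Without MEHP 1 and 2 and DEHP 4 the correlation was 0.92 with Star, 0.80 with Fdx1, 0.79 with Scarb1, 0.82 with Cyp11a1 and 0.71 with Hsd3b1. The points share arrays and scaling, and the values are descriptions with no test. Cyp11b2 correlated with Akr1b7 at 0.88 and with Cyp11b3 at 0.83, and Cyp11b3 with Akr1b7 at 0.68. Without EHO 1 and EHO 2 these were 0.50, 0.65 and 0.02.

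**Figure D4:**
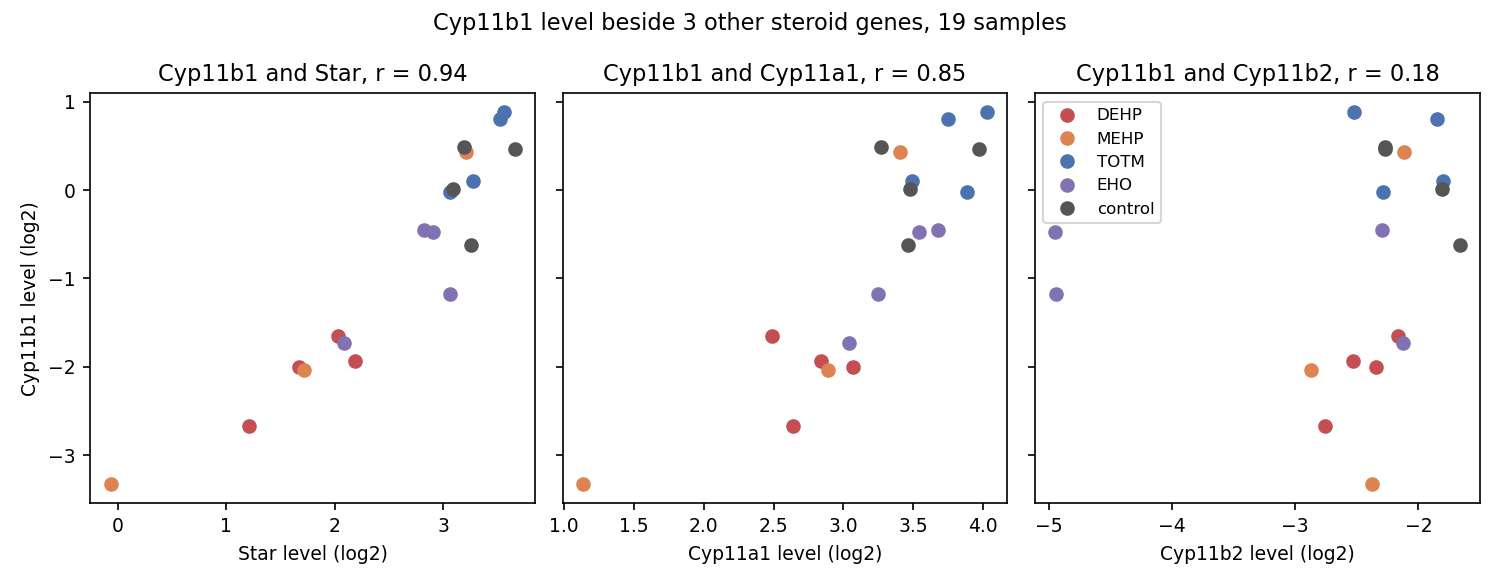
Cyp11b1 level (log2) against the levels of Star, Cyp11a1 and Cyp11b2 in 19 samples, 1 point per sample, coloured by group. Cyp11b1 follows Star (r = 0.94) and Cyp11a1 (r = 0.85) along 1 line, while in the Cyp11b2 panel EHO 1 and EHO 2 stand apart at the left.

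The 5 genes with a symbol whose level was most like that of Cyp11b1, among 9698, were Atp4b (r = 0.97), a subunit of the gastric proton pump, Stc2 (0.95), a secreted glycoprotein, Ddc (0.95), the decarboxylase of dopamine and serotonin synthesis, Inha (0.94), the inhibin alpha subunit, and Procr (0.94), the protein C receptor. Without MEHP 1 and 2 and DEHP 4, the samples farthest from the median, they were 0.95, 0.93, 0.91, 0.93 and 0.91. For Cyp11b2 the nearest were Ica1l (0.99), Nphs1 (0.99), Kcna3, Nos2 and Or4f61d (0.98 each). For Cyp11b3 the nearest 4 were Car9 (0.93), Angpt4, Dab1 and Spata13 (0.88 each), and for Akr1b7 they were Atp2b3, Ppp1r1b, Aqp8, Tmem43 and Best4 (0.97 each). Without EHO 1 and EHO 2 the values were 0.83 to 0.88 for Cyp11b2, 0.69 to 0.85 for these 4 of Cyp11b3 and 0.84 to 0.87 for Akr1b7. Of the 5 genes, 3 to 5 returned for Cyp11b1 under 6 other ways to scale or treat the arrays, 1 to 5 for Cyp11b2, and 0 to 5 for Cyp11b3 and for Akr1b7.

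Among 14 genes of steroid synthesis, 13 could be tested, and with each of the 4 compounds 0 were called by limma in either direction. Cyp17a1, the enzyme that turns the pathway to androgens, had outlier spots on all control arrays, so it has no difference from control. With DEHP, 9 of 13 lay below control, with a median of −0.11 beside −0.03 over all genes. Star was at −1.53 ± 0.46, Scarb1 at −1.33 ± 0.44, Fdx1 at −1.08 ± 0.37 and Cyp11a1 at −0.79 ± 0.34 with DEHP (limma adjusted p = 1.0 for all 4), beside −2.15 ± 0.57 for Cyp11b1. With MEHP, 11 of 13 lay below control (median −0.41 beside −0.06), with TOTM 6 of 13 (0.02 beside −0.04) and with EHO 11 of 13 (−0.33 beside −0.18). Hsd3b1, which converts pregnenolone to progesterone, was at −0.48, −0.75, −0.12 and −0.57 with DEHP, MEHP, TOTM and EHO.

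**Figure D5:**
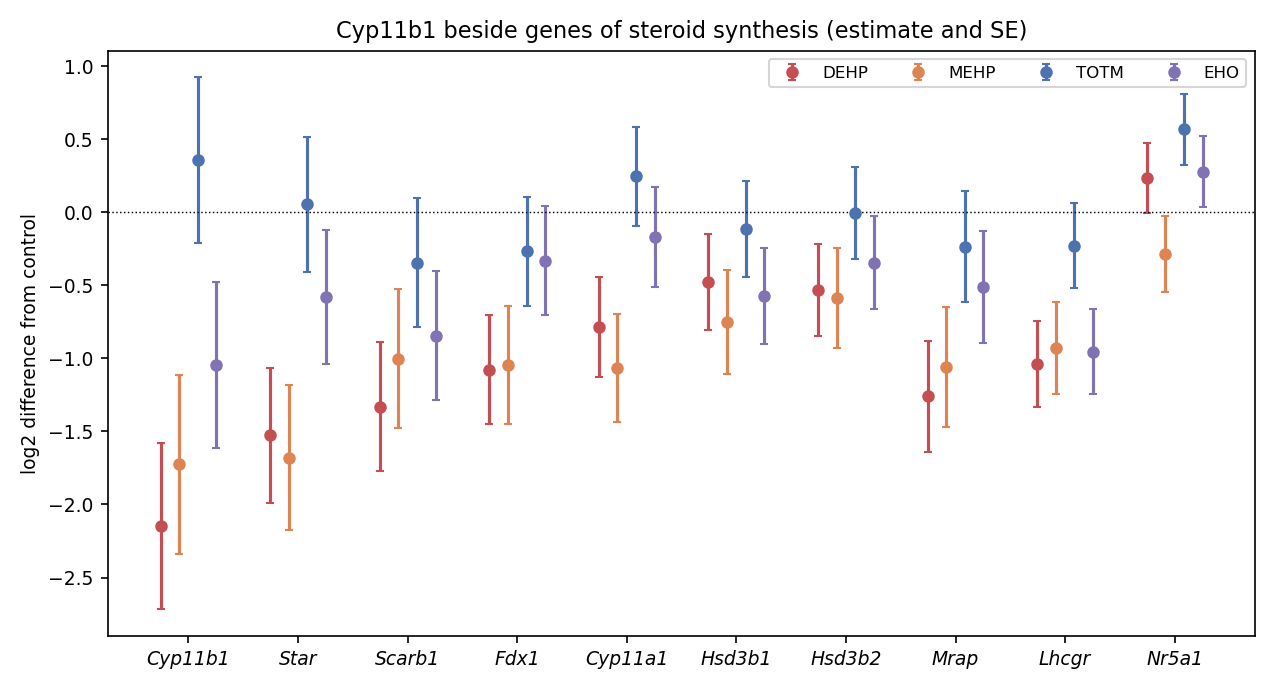
Difference from control (log2, estimate and SE) of Cyp11b1 and 9 genes of steroid synthesis and its control, for DEHP, MEHP, TOTM and EHO. Cyp11b1 is lowest with DEHP (−2.15), beside Star at −1.53. TOTM estimates for Cyp11b1, Star, Cyp11a1 and Nr5a1 lie above 0. Those for Scarb1, Fdx1, Mrap, Lhcgr, Hsd3b1 and Hsd3b2 lie below 0, from −0.35 for Scarb1 to −0.005 for Hsd3b2.

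Genes of ACTH signalling and corticosteroid handling were read beside a share of 24.8% of all genes called with EHO in either direction. Of 9 tested genes of the ACTH and melanocortin list, limma called 0 with DEHP, MEHP or TOTM, and with EHO 1 higher and 1 lower. These were Gnas, the stimulatory G protein, at 0.67 ± 0.15 (adjusted p = 0.0121), and Pde8a, a phosphodiesterase that breaks down cAMP, at −0.72 ± 0.18 (adjusted p = 0.0199), by limma. Both turned sign under quantile normalization, to −0.46 and 0.03. Without EHO 1 and EHO 2 Gnas was at 0.59 and lost its call (limma adjusted p = 0.130), and Pde8a kept it at −0.86 (adjusted p = 0.0447). Of 11 tested genes of corticosteroid metabolism and action, 1 was called, with EHO: Nr3c2, the mineralocorticoid receptor, at −1.05 ± 0.29 (limma adjusted p = 0.0285). Nr3c2 was at −0.46 without EHO 1 and EHO 2 and was not called (limma adjusted p = 0.380). Serpina6, which carries corticosteroids in blood, was at −1.56 ± 0.59 (adjusted p = 0.0563) and H6pd, which feeds cofactor to Hsd11b1, at −1.28 ± 0.46 (adjusted p = 0.0502) with EHO by limma, short of the threshold.

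Of 15 tested genes of adrenal cortex development and zonation, 0 were called with DEHP, MEHP or TOTM. With EHO limma called Dab2, an endocytic adaptor, higher at 0.94 ± 0.20 (adjusted p = 0.0122), and the potassium channel Kcnj5 (−0.86 ± 0.24, adjusted p = 0.0311) and Ccn3 (−0.53 ± 0.15, adjusted p = 0.0329) lower. Ccn3, a matricellular protein named here after its value was seen, was at 0.10 under quantile normalization. None of these 3 was called by limma without EHO 1 and EHO 2, with Dab2 at 0.69 (adjusted p = 0.139), Kcnj5 at −0.38 (adjusted p = 0.252) and Ccn3 at −0.58 (adjusted p = 0.174). Nr0b1, a repressor of steroid genes, was at −0.60 ± 0.21 with DEHP and −0.47 ± 0.21 with EHO, and neither passed. Of 4 other aldo-keto reductases, relatives of Akr1b7, 0 were called with any compound. Akr1b10 was the nearest at −1.01 ± 0.43 with EHO (limma adjusted p = 0.0799), and Akr1b1 and Akr1b8 were at −0.24 and 0.17.

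Cell type markers were read beside these results. All 10 Sertoli, all 11 fetal Leydig and all 7 gonocyte markers on the array were well above background on the 4 control arrays, as the tissue label has it. Of the 11 Leydig markers, limma called 0 with DEHP, MEHP or TOTM, and with EHO 2 lower and 1 higher. Lhcgr, the receptor for luteinising hormone, was at −1.04 ± 0.29 with DEHP (limma adjusted p = 0.866) and −0.95 ± 0.29 with EHO (adjusted p = 0.0362). Prlr was at −0.72 ± 0.21 and Dlk1 at 0.62 ± 0.18 with EHO, the other 2 calls. Lhcgr with EHO was at 0.020 with normexp and quantile normalization. In the fit without EHO 1 and EHO 2 limma called none of the 3, with Lhcgr at −0.85 (adjusted p = 0.275), Prlr at −0.31 (adjusted p = 0.491) and Dlk1 at 0.56 (adjusted p = 0.222). The mean level per sample of the 10 Leydig markers with values in all samples (all but Insl3) was −0.12 to 0.03 with DEHP, −0.07 to 0.20 with MEHP, 0.00 to 0.21 with TOTM and 0.08 to 0.39 with EHO, against 0.16 to 0.27 in control. With DEHP it thus lay below every control pool as Cyp11b1 did, and its part in the result was not tested.

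Markers of tissue next to the testis were checked too. Of 9 adrenal medulla markers on the array, 5 were well above background on all control arrays and 2 (Chgb and Slc18a1) on none, while Dbh was so on 1 control array and Th on 3. For the 6 tested, the mean level per sample was −1.16 to −0.87 with DEHP, −1.13 to −0.70 with MEHP, −0.82 to −0.55 with TOTM and −1.29 to −0.76 with EHO, against −0.74 to −0.55 in control, and its part in the Cyp11b1 result was not tested. Ddc, on this list and among the genes most like Cyp11b1, was at −1.33 ± 0.40 with DEHP (limma adjusted p = 1.0). Of 8 kidney markers 4 were well above background on all control arrays and 2 on none, and 2 (Nphs1 and Cubn) were called lower with EHO. Of 9 mesonephric duct markers 7 were well above background on all control arrays, and 1 (Pax2) was called higher with EHO. Sertoli markers had 1 call with EHO, Gata4 higher at 0.37, which was at −0.06 under quantile normalization, and gonocyte markers 1, Kit lower at −1.53. Without EHO 1 and EHO 2 limma called none of these 5: Nphs1 was at −0.41 (adjusted p = 0.413), Cubn at −0.61 (adjusted p = 0.206), Pax2 at 0.50 (adjusted p = 0.101), Gata4 at 0.35 (adjusted p = 0.268) and Kit at −0.52 (adjusted p = 0.152). With DEHP, MEHP and TOTM these 5 lists had 0 calls by limma.

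The authors' deposited table lists probes with a p-value under 0.01 for each compound, as signed fold changes from control. In the authors' deposited table Cyp11b1 was 4.0-fold lower with DEHP (p = 3.84e-08, by the authors) and 9.1-fold lower with MEHP (p = 6.68e-11, by the authors). In the authors' deposited table Cyp11b2 was 1.27-fold lower with DEHP (p = 0.00194, by the authors). No member was among the 3298 probes it lists for TOTM or the 4210 it lists for a compound headed EH at the same dose, taken here as EHO. The test and the arrays behind the authors' deposited table are not given in the sources used here.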

How the data were processed

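Array intensity was deposited as scanner output, 1 file per array. Per the file headers it was written by Agilent Feature Extraction, version 9.5.3.1 (9.5 in the submitters' processing notes), from arrays of 1 dye whose probes are placed on rat build rn4. The authors' software had subtracted background from this intensity and detrended it, filled in surrogate values for the dimmest spots, and left arrays unscaled. Another deposited table gives the authors' fold per probe as a score (negative where the compound is lower) with the authors' p-value.

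For the present work spots flagged as outliers were dropped. Of spots brighter than the 75th percentile, 4.31% to 4.47% were flagged on control arrays, against 0.101% to 0.332% on the others. With outlier spots kept, 66 genes were called higher and 8 lower for DEHP, beside 1 and 0 with them dropped. For TOTM the counts were 65 and 40, beside 1 and 4. Scaling subtracted, on the log2 scale, the 75th percentile of all non-control spots. Testing was limited to 28133 probes that every array of some group marked well above background. The brightest probe stood for its gene, giving 24276 genes (23956 with control values). Group means over 19 samples were estimated with limma (version 3.58.1, R 4.3.3), and Benjamini-Hochberg adjustment was made per comparison. The R package data.table, version 1.17.8, read the files. Replicate numbers have no stated link to a litter or day. Precision is limited by the number of arrays. The fit was tested on simulated data.

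Members and gene lists were chosen with earlier results of these data known. Named genes were the members, the 5 genes most like each measured member, up to 4 genes per list with the largest difference from control, and a fixed set of steroid genes. Names outside this rule are calls among the lists. For 2 genes this rule names, or a list holds, results are not reported here. RefSeq (build GRCr8) supplied current symbols for 10768 probes, and promoters. Alternatives were quantile normalization, normexp (offset 50) with quantile normalization, median scaling, other filters and percentiles, every probe, outlier spots kept, a variance trend, both groups on their own, a replicate block, array weights and leaving out arrays.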

Additional observations from a re-analysis of the deposited data

Results flagged for a closer look

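Akr1b7 on control 2 stood far from the other control arrays, at a level of −1.82 against −0.86 to −0.68 on control 1, 3 and 4. Its gap to the nearest array was 0.842 of the range of the group. Of 54 groups of 4 samples tested among the named genes 1 was marked in this way, where chance marks about 1 in 20. Without control 2 the difference of EHO from control in Akr1b7 was −2.29 (limma adjusted p = 0.0188) and that of DEHP was −0.73. Control 2 is also the array that lay close to MEHP 3.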

How the results depend on the processing

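The direction of Cyp11b1 was the same under all alternatives run (lower with DEHP, MEHP and EHO, higher with TOTM), and so was that of Akr1b7 and Cyp11b2 with EHO. With DEHP 1 member, Cyp11b1, was called under quantile normalization (limma adjusted p = 0.0193), normexp with quantile normalization (−1.31, adjusted p = 0.00786), without MEHP 3 and MEHP 4 (adjusted p = 0.0366) and with the 2 groups alone (adjusted p = 0.0159). With MEHP 1 was called (Cyp11b1) without MEHP 3 and MEHP 4 or without control 2 and MEHP 3 (−2.63, limma adjusted p = 0.0179), and 3 with array weights. With EHO 1 (Akr1b7) instead of 2 were called with normexp, without MEHP 3 and MEHP 4, without control 2 and MEHP 3, with array weights and relative to the median of all genes, and 0 without EHO 1 and EHO 2 and with the 2 groups alone. For EHO against TOTM 2 instead of 1 were called with quantile normalization, median scaling, MEHP 1 and 2 as separate samples, a trended variance, without control 2 and MEHP 3 and without MEHP 1 and 2, and 0 without EHO 1 and EHO 2, with the 2 groups alone and with array weights. Without MEHP 3 and MEHP 4 the 1 called there was Cyp11b1, not Akr1b7. For EHO against DEHP 1 was called with median scaling. For TOTM against DEHP 1 (Cyp11b1) was called without MEHP 3 and MEHP 4, without control 2 and MEHP 3, with the 2 groups alone and with array weights. For TOTM against MEHP 1 was called without MEHP 3 and MEHP 4, without control 2 and MEHP 3 and with MEHP 1 and 2 as separate samples, and 2 with array weights. Leaving out each array in turn gave 0 to 2 members called with EHO, 0 to 1 with MEHP and 0 with DEHP or TOTM. Among pairs it gave 0 to 2 for EHO against DEHP, 0 to 1 for EHO against MEHP and 0 to 1 for TOTM against MEHP. For EHO against TOTM it gave 0 to 4 (all 4, Cyp11b3 included, without EHO 4), and 0 for the other 2 pairs. In that fit without EHO 4, limma called 2531 genes higher and 8390 lower over the whole array.

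Cyp11b3 turned sign, and against control it was uncalled under all alternatives run. With EHO it was at 0.29 under quantile normalization, 0.072 with normexp, 0.13 with median scaling and 0.12 without EHO 1 and EHO 2, with MEHP at −0.065 without control 2 and MEHP 3 and −0.30 with array weights, and with TOTM at −0.0070 without control 2 and MEHP 3. Leaving out each array, Cyp11b3 with TOTM was −0.019 to 0.18 and Cyp11b2 with TOTM −0.22 to 0.024. The cause was not tested. A filter on all 20 arrays left no member to test.

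With the replicate number as a block, 1 member (Akr1b7) was called with EHO, 0 for EHO against TOTM and 0 with DEHP, MEHP or TOTM. The numbers do not pair the samples: 16 of 40 same-numbered pairs correlated above 0.1, and 1 of 20 arrays correlated best with its own number. Over all genes, calls ran from 0 to 1902 for DEHP (1 as reported), 93 to 3754 for MEHP (231), 0 to 2724 for TOTM (5) and 3 to 10490 for EHO (5937). Member calls gained under an alternative stand beside such counts. For DEHP 1655 genes were called lower under quantile normalization, 1890 with normexp and 15 with the 2 groups alone. With array weights 1020 genes were called higher and 2734 lower for MEHP. The weight was 9.46 for MEHP 4, 0.39 for MEHP 3 and 1.02 for MEHP 1 and 2. Calls with MEHP under that setting, members included, thus rest mostly on MEHP 4, the array that lay close to DEHP 3. With median scaling EHO had 5614 genes called higher and 2637 lower, beside 1547 and 4390. Members near background (Cyp21a1, Mc2r, and Cyp11b2, Cyp11b3 and Akr1b7 on EHO 1 and EHO 2) are limited by signal.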
